A study of Mus musculus with 40 samples.

Results

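The tumors described here are the CT26 tumors of the 5 mice that received the isotype control antibody, out of 40 mice with RNA-seq data in the series. They were taken by their label, with earlier results of these data known, and none of the 35 antibody-treated tumors enters any value. CT26 is a colon carcinoma line of BALB/c mice, and BALB/c hosts aged 6 to 12 weeks were injected under the skin with 1000000 live cells each. Motavizumab, a mouse IgG2a (mIgG2a) antibody against a viral protein that serves as a control without a target in the mouse, was injected into the peritoneum on days 6, 9 and 12, and tumors were removed on day 13. RNA came from a frozen fragment of each tumor, so it is a mixture of injected cells, host immune cells, host stroma and whatever neighboring tissue the fragment held. The sex of the mice is not given in the sources used here, and all injected cells came from 1 line. In RNA of whole tumors, fewer cells of a type and less RNA per cell cannot be told apart.

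A transplanted carcinoma soon becomes a mixed tissue. The injected cells divide, vessels and fibroblasts of the host grow in, and myeloid cells, mostly macrophages, and lymphocytes enter. Each of these cell types carries transcripts that the others make little of, such as C1qa in macrophages, Cd3e in T cells or Pecam1 in endothelium, so each list of marker genes was summed. The sum is a rough guide to a cell type only where its largest members are particular to that type, which does not hold for every list. Among those where it fails are the dendritic cell, regulatory T cell, macrophage state and lymphatic endothelium lists, each led by 1 gene that other cells make too. Levels are given in TPM, for which the count is divided by the gene's exon length and then scaled to a fixed total per tumor, so that genes can be compared within a tumor. Mice are named by the library number in their label (46, 51, 63, 74 and 78), and where 5 values follow a gene they stand in that order. Mice 46 and 51 also differ from mice 63, 74 and 78 in the library numbering and in sex chromosome transcripts, as described near the end. Where a gene sets these mice apart, host sex and numbering cannot be told apart from other differences between the tumors.

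The 5 libraries held between 12762129 and 16232524 counts in genes. The library of mouse 63 stood apart from the other 4. In protein-coding genes with a mean of at least 10 CPM (counts scaled to a common library total, without regard to gene length), its median log2 deviation from the mean of the 5 mice was 0.28 for genes under 1.5 kb of exon and -0.17 for genes over 6 kb, while the other mice stayed between -0.09 and 0.06 in all 4 length classes. Mitochondrial transcripts took 1.18% of its counts against 1.53% to 2.11% in the others, and ribosomal protein genes took 10.8% against 8.05% to 8.54%. In normalized counts mouse 63 was the highest of the 5 in 32.6% of genes and the lowest in 30.4%. In TPM, over the 12250 genes that passed the filter on low counts and have a length, it was the highest in 17.1% and the lowest in 47.0%. Shares of all genes given below beside the lowest, the highest or separate mice of a list are over these 12250 genes in TPM. For the list sums that it moves most, values without mouse 63 are given, and the part that gene length has in a single gene's value was not tested.

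**Figure D1:**
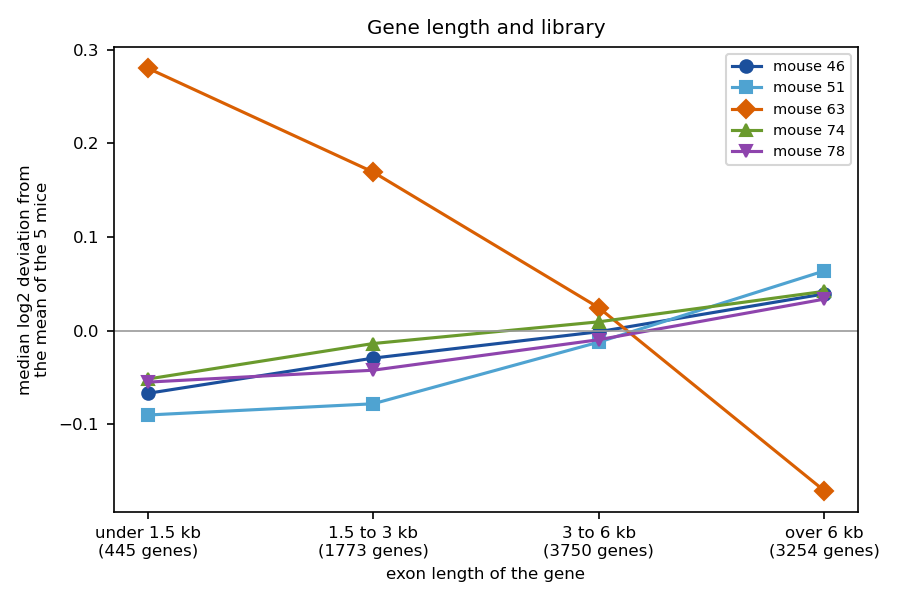
Median log2 deviation of each mouse from the mean of the 5 mice (vertical axis) for protein-coding genes in 4 classes of exon length (horizontal axis, number of genes in brackets), 1 line per mouse. Mouse 63 goes from 0.28 in the shortest genes to -0.17 in the longest, and the other 4 mice lie close together. Their slight run the other way follows largely from taking deviations from the mean of all 5 mice.

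In every one of the 5 tumors, 11367 genes reached at least 1 TPM, of which 10993 are protein-coding. At least 100 TPM was reached by 1420 genes in every tumor, and at least 1000 TPM by 118. The spread between tumors was small for most genes. It was measured as a biological coefficient of variation (CV), the CV of normalized counts after subtraction of the counting variance, and its median over the 13771 genes that passed the filter on low counts was 0.107 (quartiles 0.0610 and 0.170). A biological CV of at least 0.5 was found in 268 genes (1.95%), although 9571 genes (69.5%) differed between mice by more than counting error at an adjusted p of 0.05 (chi-square test). Without mouse 63 the median was 0.0657, and 6369 genes differed by more than counting error. The count of 268 depends on the filter. It was 70 where the filter asks for its minimum in all 5 mice and 19 at a mean of 10 CPM or more.

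The 30 genes with the highest mean TPM were led by the housekeeping machinery: the mitochondrial gene mt-Co1 (11656 to 23773 TPM), the ribosomal protein gene Rplp1 (12700 to 16253 TPM) and the elongation factor gene Eef1a1 (10158 to 11479 TPM). Among them stood several genes of the tumor, its stroma and its immune cells. Lgals1, which encodes the glycan-binding galectin-1, ran from 11505 to 14178 TPM. B2m, the light chain of MHC class I, ran from 7533 to 8338 TPM, and the MHC class I heavy chain gene H2-D1 from 3477 to 3945 TPM. Spp1, which encodes the secreted matrix protein osteopontin, had 4076, 4295, 4292, 3436 and 4186 TPM. Gm23935 and Mir6236, also in this group, are annotated as short RNAs whose TPM is inflated by their length, and they took between 0.0178% and 0.0448% of counts.

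**Figure D2:**
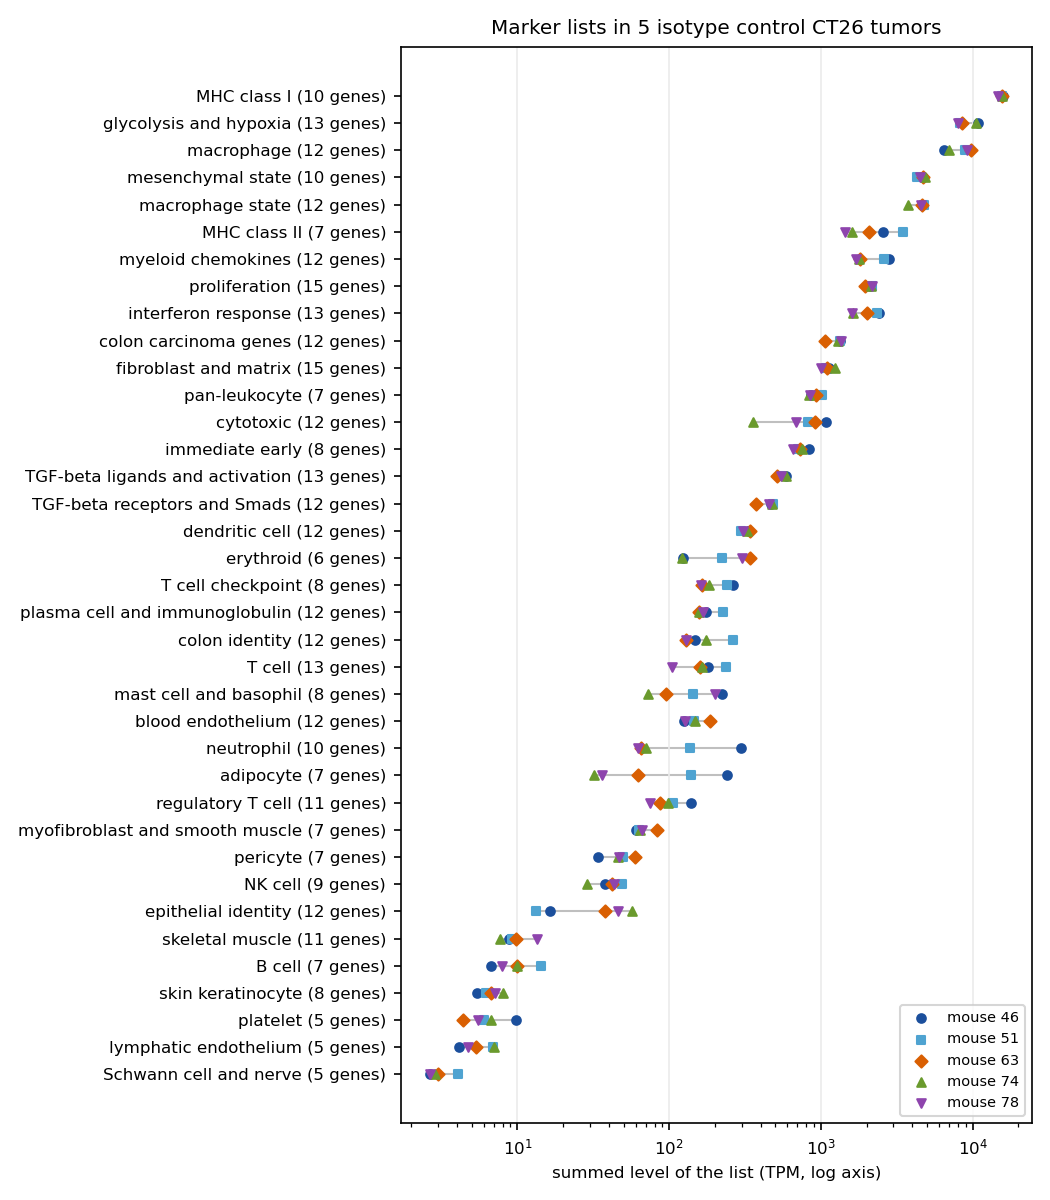
Summed level of each marker list except the sex chromosome list (horizontal axis, TPM, logarithmic) in each of the 5 mice (1 symbol per mouse). Lists are ordered by their mean, with the number of genes in brackets. MHC class I sums stand between 14695 and 15894 TPM, the macrophage list between 6455 and 9769 TPM, T cell genes between 104 and 235 TPM, and the adipocyte and neutrophil lists spread most.

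Epithelial genes were low in these tumors and mesenchymal genes high. Of 12 epithelial genes, 1, Krt18, reached 1 TPM in every tumor, 5 stayed under 1 TPM in all, and the list summed to 16.3, 13.3, 38.0, 56.5 and 45.9 TPM. Epcam, an adhesion protein of nearly all carcinomas, had 0, 0, 15, 20 and 30 counts. The counts of 0 in mice 46 and 51 allow up to 0.185 and 0.229 CPM. Krt8, a keratin of simple epithelia, had 0.101, 0.250, 2.56, 12.5 and 5.59 TPM, and its partner Krt18 had 14.1, 10.9, 26.3, 20.1 and 23.6 TPM. Krt19 followed with 1.27, 0.792, 4.75, 14.8 and 9.27 TPM. For each of these 4 genes, mice 46 and 51 lay below mice 63, 74 and 78 without overlap, as in 8.84% of all genes. Cdh1, the E-cadherin of epithelial junctions, stayed between 0.388 and 1.91 TPM. Epcam, Krt8 and Krt19 do not reach the minimum of the filter on low counts in all 5 mice, so they had to differ between mice.

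The mesenchymal genes were high and even. All 10 exceeded 1 TPM in every tumor, and their sum lay between 4320 and 4863 TPM (CV 4.61%). Vim, the intermediate filament of mesenchymal cells, had 3458, 3170, 3659, 3551 and 3350 TPM, which is between 139 and 291 times the level of Krt18 in the same tumor. Fn1, which encodes fibronectin, ran from 337 to 495 TPM, and the matrix protein gene Sparc from 416 to 487 TPM. The transcription factor gene Twist1 ran from 120 to 132 TPM, Snai1 from 35.3 to 51.6 TPM, and Zeb1 from 9.11 to 14.3 TPM, with its lowest value in mouse 63. Host fibroblasts and macrophages also express Vim, Fn1 and Sparc, so their source within the tumor cannot be told apart here.

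Few genes of the colon were left. Of 12 colon genes, 4 exceeded 1 TPM in every tumor and 8 stayed below 1 TPM in all of them, among them Lgr5 of intestinal stem cells, Slc26a3 of colonocytes and Fabp1 of enterocytes, each with 0 counts in every mouse. Krt20, a keratin of the differentiated gut lining, was the exception with 126, 240, 106, 160 and 107 TPM, so it exceeded Krt18 from 4.01 to 22.0 times. Cdx2, the transcription factor of intestinal identity, was low but present at 4.75 to 7.93 TPM, and the gut lectin gene Lgals4 had 9.27 to 15.8 TPM. Cdh17, a cadherin of the intestine, lay between 1.03 and 2.47 TPM.

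Genes that are often altered in colon carcinoma differed little between mice. CT26 is known to have lost the Cdkn2a locus. Cdkn2a, the locus of p16 and p19Arf, lay between 1.25 and 2.98 TPM, and the neighboring Cdkn2b between 0.708 and 1.73 TPM. Myc ran from 193 to 229 TPM, Ccnd1, which encodes cyclin D1, from 399 to 530 TPM (from 493 without mouse 63), and Trp53 from 139 to 149 TPM (from 148 without mouse 63). Mouse 63 was the lowest in 10 of the 11 genes of this list that passed the filter (47.0% of all genes), and without it the CV of the sum went from 9.18% to 1.93%.

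Proliferation genes were high in every tumor. All 15 exceeded 1 TPM in all mice, the sum lay between 1935 and 2183 TPM, and the median biological CV of the list was 0.0483. Mki67, a marker of cycling cells, had 75.2, 89.5, 55.2, 71.4 and 80.6 TPM. Top2a, the topoisomerase of dividing cells, ran from 163 to 238 TPM, Cdk1, the kinase that drives mitosis, from 108 to 115 TPM, and Pcna, the sliding clamp of DNA synthesis, from 343 to 383 TPM. Mouse 63 was the lowest in 11 of 15 members (47.0% of all genes), and without it the sum's CV was 1.72%.

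Glycolysis and hypoxia genes were among the most abundant of any list, and their order across mice was different. The 13 genes summed to 10835, 8301, 8550, 10457 and 8012 TPM. Mouse 46 was the highest in 9 of 13 (18.8% of all genes) and mouse 74 in 3 (16.2%). Slc2a1, the glucose transporter GLUT1, had 323, 246, 191, 275 and 177 TPM. Car9, a carbonic anhydrase that responds to hypoxia, had 66.8, 37.2, 33.4, 60.0 and 31.2 TPM, and Vegfa, the ligand that draws in vessels, had 230, 178, 126, 207 and 160 TPM. In Slc2a1, Car9 and Vegfa, mice 46 and 74 lay above the other 3, as in 10.2% of all genes. Ldha, which makes lactate, was at 2020 to 2619 TPM.

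Fibroblast and matrix genes summed to 1137, 1077, 1101, 1230 and 997 TPM (CV 7.71%). The fibrillar collagen genes Col1a1 (141 to 209 TPM), Col1a2 (283 to 392 TPM) and Col3a1 (136 to 213 TPM) carried most of the sum. The even total held genes that moved in unlike ways. Postn, the matrix protein periostin, had 11.3, 9.99, 9.52, 4.07 and 2.46 TPM. The proteoglycan gene Bgn had 45.2, 52.5, 47.5, 26.8 and 20.7 TPM, Dcn (decorin) had 25.5, 26.4, 18.9, 14.6 and 12.1 TPM, and Lum (lumican) had 11.5, 7.50, 10.4, 5.30 and 3.65 TPM. In these 4 genes, and in Col5a2 with 12.5, 12.7, 10.2, 5.0 and 4.52 TPM, mice 74 and 78 lay below the other 3 without overlap, as in 8.85% of all genes. The list as a whole did not share this. Over its 15 genes, mouse 74 was the highest in 6 (16.2% of all genes) and the lowest in 2 (13.3%). Mouse 78 was the lowest in 7 (11.5%). Col6a1 was instead highest in mouse 74, with 106, 141, 157, 199 and 155 TPM. Fap, the activated-fibroblast protease, was low at 0.441 to 1.10 TPM, and Pdgfrb, a receptor of fibroblasts and pericytes, was level at 82.7 to 85.5 TPM. Postn was the 1 member of 15 with a biological CV of at least 0.5, against 1.95% of all genes.

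Smooth muscle and pericyte genes were sparse. Acta2, the smooth muscle actin of myofibroblasts, had 10.9, 17.5, 22.8, 17.2 and 16.9 TPM, while Cnn1 and Myh11 stayed under 1 TPM in all mice. The sum of the myofibroblast and smooth muscle list had a CV of 13.4%, and of 4.12% without mouse 63. The pericyte gene Rgs5 lay between 6.04 and 11.7 TPM. Blood endothelium genes summed to 125, 146, 184, 148 and 128 TPM. The junction genes Pecam1 (19.9 to 25.4 TPM) and Cdh5 (17.1 to 21.1 TPM) differed little. Plvap, a protein of fenestrated vessels, had 45.4, 46.1, 68.2, 48.7 and 38.9 TPM, and mouse 46 was the lowest in 8 of the 12 endothelial genes (14.8% of all genes). The high values of mouse 63 were in Plvap, Cldn5, Esam, Egfl7, Tie1 and Emcn, and without it the sum's CV went from 16.2% to 8.88%. The 5 lymphatic endothelium genes summed to 4.12, 6.92, 5.37, 7.04 and 4.71 TPM, most of it Lyve1 (3.37 to 5.70 TPM), a hyaluronan receptor that some macrophages carry as well. Prox1, the defining transcription factor, stayed under 0.1 TPM and Mmrn1 had 0 counts in every tumor.

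**Figure D3:**
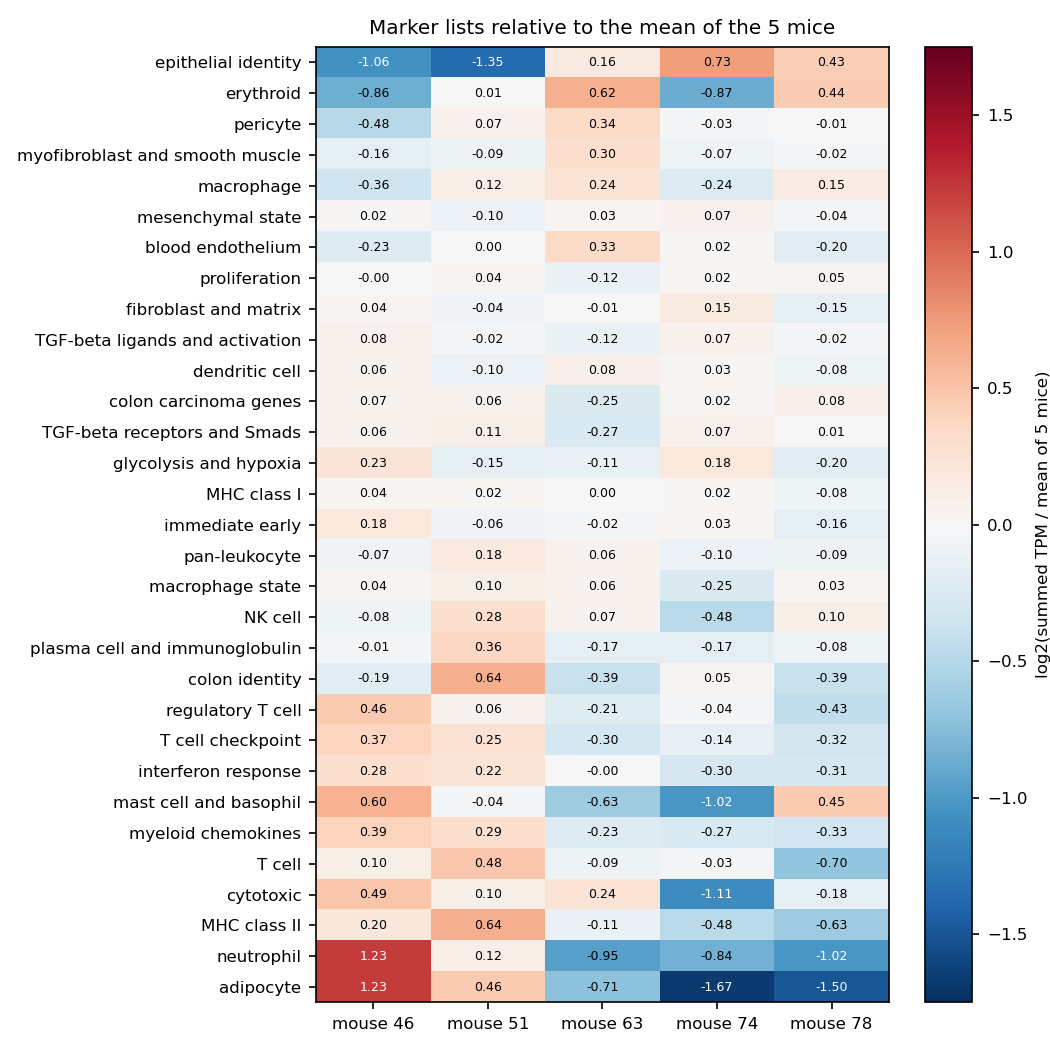
Summed TPM of each marker list in each mouse as the log2 ratio to the mean of the 5 mice (color and number), for lists with a mean sum of at least 20 TPM. The sex chromosome list is left out. Adipocyte and neutrophil lists are highest in mouse 46 (1.23 each), the epithelial list is lowest in mice 46 and 51 (-1.06 and -1.35), and MHC class I and mesenchymal genes hardly vary.

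Among the lists of single leukocyte types, macrophage genes had the highest sum. The 7 pan-leukocyte genes summed to 858, 1015, 934, 840 and 842 TPM (CV 8.47%), all 7 differed between mice by more than counting error, as did 69.5% of all genes, and Ptprc, which encodes CD45, lay between 16.8 and 31.6 TPM. The 12 macrophage genes summed to 6455, 8950, 9769, 6972 and 9135 TPM. All 12 exceeded 1 TPM in every mouse. The complement gene C1qa, made by tissue macrophages, had 1226, 1655, 1958, 1368 and 1454 TPM. Lyz2, the lysozyme of myeloid cells, had 2341, 3581, 3791, 2405 and 4060 TPM, with mice 46 and 74 below the other 3, as in 8.02% of all genes. Apoe, a lipid carrier that macrophages secrete, split the same way with 519, 747, 890, 512 and 777 TPM. Csf1r, the receptor that macrophages need to survive, had 77.0, 103, 99.4, 98.7 and 115 TPM, between 3.79 and 6.84 times the level of the granulocyte receptor gene Csf3r. Mouse 46 was the lowest in 8 of the 12 genes (14.8% of all genes).

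Genes that mark macrophage states summed to 4614, 4800, 4661, 3762 and 4584 TPM (CV 9.19%), most of it Spp1, and some of the smaller members differed several-fold between mice. Nos2, the nitric oxide synthase of classically activated cells, had 25.7, 18.2, 9.75, 10.2 and 5.82 TPM. Cd163, a scavenger receptor, had 9.41, 8.16, 3.41, 1.96 and 4.54 TPM, and Gpnmb had a narrower range from 28.4 to 54.2 TPM. Cx3cr1, a receptor of patrolling monocytes and resident macrophages, went the opposite way with 7.43, 15.7, 20.2, 34.6 and 35.0 TPM. In Nos2 and Cd163, mice 46 and 51 lay above mice 63, 74 and 78 (16.8% of all genes), and in Cx3cr1 below them (8.84%). These 3 genes are the members of this list with a biological CV of at least 0.5, of 11 that passed the filter, against 1.95% of all genes, and Chil3 was at or under 1.21 TPM. Ccr2, the receptor of entering monocytes, ran from 38.5 to 68.2 TPM and Il1b from 64.5 to 98.2 TPM.

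Neutrophil genes were highest in mouse 46 and next highest in mouse 51, with sums of 296, 137, 65.3, 70.7 and 62.1 TPM. S100a8 and S100a9, the pair of calcium-binding proteins that abound in neutrophils, had 47.7, 18.0, 4.04, 3.96 and 2.57 TPM and 155, 46.9, 10.7, 18.6 and 5.14 TPM. S100a8 does not reach the filter's minimum in all 5 mice, so it had to differ between mice. Cxcr2, the neutrophil chemokine receptor, had 2.71, 0.803, 0.263, 0.491 and 0.440 TPM. G0s2, which slows fat breakdown and is made by both neutrophils and fat cells, had 30.3, 11.5, 1.61, 3.15 and 0.256 TPM. Ly6g, the marker that defines mouse neutrophils, had counts in mouse 46 alone, at 0.836 TPM. Not all of the list followed: Csf3r lay between 14.5 and 21.3 TPM with a biological CV of 0.09, and Mmp9 between 20.6 and 30.2 TPM.

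Mast cell genes formed a further pattern. Tpsb2, a mast cell tryptase, had 70.1, 39.0, 22.4, 20.2 and 44.6 TPM. The chymase genes Cma1 and Mcpt4 had 57.6, 35.7, 22.2, 18.5 and 52.1 TPM and 46.0, 32.5, 25.5, 16.4 and 50.6 TPM. Cpa3, the mast cell carboxypeptidase, had 36.7, 27.1, 17.4, 13.7 and 43.3 TPM. In these 4 genes mice 46 and 78 were the highest (6.14% of all genes) and mouse 74 the lowest, so that the sum of the list differed 3.09-fold between mice 46 and 74. The dendritic cell list was flat by comparison at 299 to 340 TPM, but Fscn1, which mesenchymal cells also express, made up 208 to 262 TPM of it. Among genes of cross-presenting dendritic cells, Xcr1 ran from 1.91 to 3.49 TPM and Clec9a from 0.682 to 3.42 TPM, both lowest in mouse 74.

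T cell genes were low, and Cd8a exceeded Cd4. The 13 T cell genes summed to 181, 235, 159, 165 and 104 TPM. Cd3e, a signaling chain of the T cell receptor, had 7.0, 7.14, 4.46, 6.48 and 2.35 TPM, and Cd3g had 14.8, 15.2, 9.12, 9.54 and 3.42 TPM. Cd8a, the coreceptor of cytotoxic T cells, had 15.9, 19.8, 10.2, 15.8 and 5.77 TPM. Cd4 had 1.07, 2.25, 1.09, 1.11 and 1.44 TPM, although macrophages can express it as well. Cd8a exceeded Cd4 in 5 of 5 mice, from 4.01 to 14.8 times. Mouse 78 was the lowest in 10 of the 13 genes (11.5% of all genes) and mouse 51 the highest in 10 (28.7%). The genes Cd3d, Cd3e, Cd3g, Trac and Cd8a placed the mice in the order 51, 46, 74, 63 and 78. It was picked as the most frequent order among the 11 members at 1 TPM or more in every mouse. Of all genes, 0.653% share it. Trbc1 was the 1 member of 13 with a biological CV of at least 0.5 (1.95% of all genes), with 13.7, 52.0, 29.7, 26.7 and 17.6 TPM.

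The 11 regulatory T cell genes summed to 139, 105, 86.8, 98.2 and 75.0 TPM, most of it Tnfrsf9. Of these genes, 6 exceeded 1 TPM in every tumor and 3 stayed under 1 TPM in all. Foxp3, their defining transcription factor, had 19, 7, 9, 5 and 8 counts, or 0.273 to 0.818 TPM, and did not pass the filter. Lrrc32, which encodes GARP, the protein that holds latent TGF-β1 on regulatory T cells and platelets, had 75, 77, 73, 41 and 24 counts, or 3.15, 4.02, 3.12, 2.18 and 1.14 TPM. Lrrc32 is also made by endothelium, and the part of each cell type in its level was not tested. Il2ra lay between 1.31 and 2.74 TPM, Ctla4 between 0.192 and 1.27 TPM, and Ccr8 between 0.425 and 1.17 TPM. Tnfrsf9 (4-1BB), a costimulatory receptor that is not particular to these cells, was far higher at 110, 76.4, 63.0, 82.0 and 59.7 TPM.

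Cytotoxic genes summed to more than T cell genes in each tumor and differed strongly between tumors. The list summed to 1083, 825, 908, 358 and 682 TPM, and mouse 74 was the lowest in 8 of the 12 genes (13.3% of all genes). Gzmb, the main apoptosis-inducing granzyme, had 166, 121, 164, 76.8 and 121 TPM. Prf1, the pore-forming perforin, had 67.7, 48.1, 62.5, 41.7 and 48.2 TPM. Gzma, whose protein is abundant in NK cells, had 54.2, 80.1, 136, 56.6 and 124 TPM. Ifng stayed between 1.38 and 3.97 TPM, so that Gzmb exceeded it from 30.4 to 88.0 times in each tumor.

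Among the cytotoxic genes, the widest spread lay in a run of granzyme genes next to Gzmb on chromosome 14. Gzmd (chr14:56129556-56132608, GRCm38, GENCODE) had 180, 125, 88.0, 10.6 and 56.8 TPM. Gzme had 65.4, 50.8, 41.5, 4.90 and 22.9 TPM. Gzmf (chr14:56205263-56211417) had 214, 147, 86.5, 18.5 and 37.7 TPM. Gzmg had 192, 139, 74.9, 12.1 and 35.6 TPM. All 4 placed the mice in one order, 46, 51, 63, 78 and 74, and their biological CVs ran from 0.63 to 0.80. This order was read from these same genes, and 0.996% of all genes share it. The neighboring Gzmc did not share that order, with 184, 115, 200, 53.0 and 184 TPM, and Gzmb had a biological CV of 0.32. Granzymes D to G are close copies of one another, and reads that fit several of them may be lost or split in the count, so single levels of these genes are uncertain.

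Checkpoint genes were expressed in each tumor. Pdcd1, which encodes PD-1, had 23.8, 19.4, 15.0, 15.8 and 11.1 TPM. Cd274, which encodes its ligand PD-L1, had 109, 91.8, 57.2, 55.8 and 52.1 TPM. Pdcd1lg2 (PD-L2) had 11.0, 7.87, 3.16, 1.65 and 4.33 TPM and was the 1 of 8 members with a biological CV of at least 0.5 (1.95% of all genes). In Pdcd1, Lag3 and both ligand genes, mice 46 and 51 lay above mice 63, 74 and 78, as in 16.8% of all genes. Not all members followed, since mouse 74 was the highest in 2 of the 8 (16.2% of all genes). Havcr2, the TIM-3 gene that macrophages also express, ran from 20.8 to 35.7 TPM, and Lag3 from 7.20 to 18.0 TPM. Tigit, at 26.6 to 44.0 TPM, stood above both Cd3g and Pdcd1 in 5 of 5 mice.

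NK cell genes were low, and B cell genes lower still. Ncr1, the NKp46 receptor, had 9.98, 11.9, 17.7, 7.94 and 17.4 TPM. Klra8, a receptor gene that BALB/c mice are known to lack, had counts in mouse 51 alone (0.416 TPM). The B cell list summed to 6.71, 14.3, 9.96, 9.86 and 7.97 TPM. Immunoglobulin genes took 0.00429% to 0.00761% of counts. Igkc, the kappa light chain, had 20.4, 63.5, 9.03, 6.10 and 28.1 TPM, and Ighg1, a switched heavy chain, reached 8.97 TPM in mouse 51 but at most 0.228 TPM in the others. Jchain of plasma cells was likewise highest in mouse 51, at 3.31 TPM against 0.297 to 1.02 TPM.

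**Figure D4:**
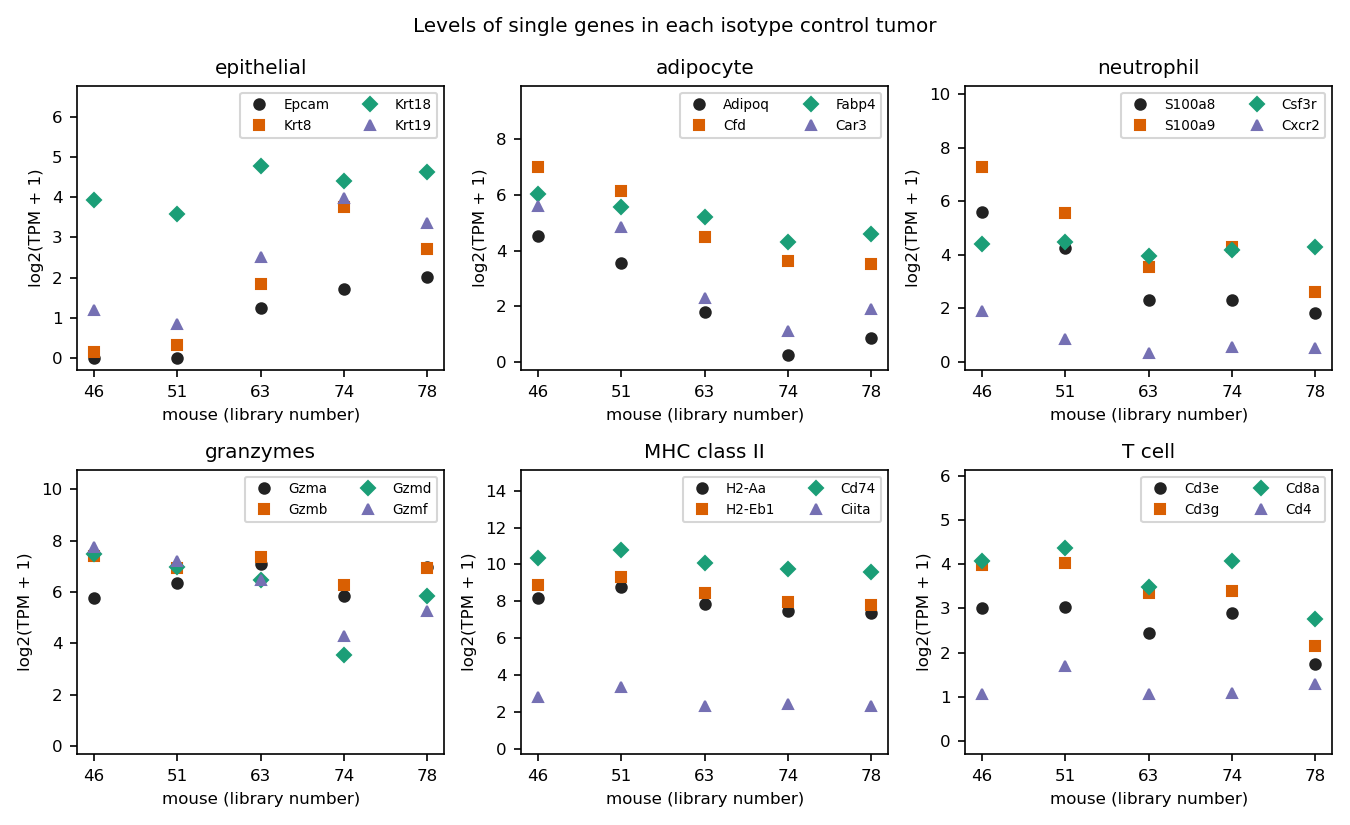
Levels of 24 genes as log2(TPM + 1) (vertical axis) in each of the 5 mice (horizontal axis, library number), in 6 groups of 4 genes, 1 symbol per gene. Epcam is at 0 in mice 46 and 51, Adipoq, Cfd and S100a9 are highest in mouse 46, Gzmd and Gzmf dip in mouse 74, and MHC class II genes peak in mouse 51.

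MHC class I was uniformly high, MHC class II was not. Class I presents cytosolic peptides on nearly every cell, while class II is made mainly by macrophages, dendritic cells and B cells under the coactivator CIITA. The 10 class I genes summed to 15894, 15699, 15543, 15673 and 14695 TPM (CV 3.02%), and H2-D1 exceeded H2-K1 from 1.77 to 1.88 times in each tumor. Tap1, the peptide transporter, ran from 150 to 217 TPM and was lowest in mouse 78, as were 8 of the 10 class I genes (11.5% of all genes). The 7 class II genes summed to 2577, 3493, 2073, 1608 and 1443 TPM, a difference of 2.42-fold between mice 51 and 78. H2-Aa had 288, 431, 232, 174 and 165 TPM. H2-Eb1 had 474, 640, 344, 250 and 224 TPM. Cd74, the invariant chain that guides class II through the cell, had 1318, 1759, 1067, 865 and 758 TPM. Ciita itself had 5.93, 9.01, 4.01, 4.45 and 4.01 TPM. In 5 of the 7 genes (H2-Aa, H2-Ab1, H2-Eb1, Cd74 and H2-DMb1) the order of the mice was 51, 46, 63, 74 and 78. This order was read from these same genes, and 0.955% of all genes share it. Mouse 51 was the highest in all 7 class II genes (28.7% of all genes).

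H2-Ea-ps, named after its values were seen, kept the same order with 622, 1047, 411, 365 and 355 TPM. This gene encodes the alpha chain of the class II molecule I-E. The reference genome comes from C57BL/6 mice, which carry a broken copy, and its annotation calls the gene a polymorphic pseudogene, while BALB/c mice are known to have a working copy. Reads of BALB/c origin that differ from the reference can also fail to align in the variable MHC genes, and the size of that loss was not tested.

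Promoter sequence was read for the class II genes. Of the 7 class II genes, 4 had an entry in the RefSeq promoter table (GRCm38.p6), and the 120 bases before the start site were searched for ATTGG and its reverse complement CCAAT, the core of the Y box to which the factor NF-Y binds. It was found in 3 of the 4 genes and in 21.3% of the 32851 promoters of the table, and it was in neither of the 2 windows of H2-DMa. The match is a description of the letters, and its relation to the levels was not tested. The 3 windows are shown 5′ to 3′ on the strand of the gene, with the core in capitals, for H2-Aa at chr17:34287824-34287943 (minus strand), H2-Eb1 at chr17:34305747-34305866 (plus strand) and H2-DMb1 at chr17:34153071-34153190 (plus strand):
H2-Aa: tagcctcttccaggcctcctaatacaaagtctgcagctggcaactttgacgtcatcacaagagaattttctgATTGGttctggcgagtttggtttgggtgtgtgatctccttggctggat
H2-Eb1: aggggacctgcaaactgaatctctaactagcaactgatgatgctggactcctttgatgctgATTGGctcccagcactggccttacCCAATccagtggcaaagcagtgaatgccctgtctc
H2-DMb1: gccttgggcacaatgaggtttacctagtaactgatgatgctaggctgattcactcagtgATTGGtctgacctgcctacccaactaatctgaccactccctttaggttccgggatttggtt
ATTGG began 48 bases before the start in H2-Aa, 59 bases before it in H2-Eb1 (with CCAAT 35 bases before it) and 61 bases before it in H2-DMb1.

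Interferon response genes also ran high to low from mice 46 and 51 to mice 74 and 78. The 13 genes summed to 2427, 2332, 1996, 1627 and 1607 TPM. The guanylate-binding protein gene Gbp2 had 555, 554, 429, 324 and 303 TPM, and the transcription factor gene Irf1 had 287, 226, 246, 168 and 173 TPM. Genes that type I interferon induces strongly did not all follow, since Irf7 ran from 183 to 213 TPM and Mx1 from 16.1 to 22.5 TPM. Cxcl9, a T cell chemokine induced by IFNγ, had 169, 261, 170, 94.2 and 161 TPM.

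The 12 myeloid chemokine genes summed to 2793, 2602, 1818, 1768 and 1695 TPM. Of these, 6 had a biological CV of at least 0.5, against 1.95% of all genes. Among genes that passed the filter, so did 6 of 9 neutrophil, 5 of 6 adipocyte, 4 of 6 epithelial and 4 of 6 red cell genes. Some of those do not reach the filter's minimum in all 5 mice. Ccl2, which draws monocytes through CCR2, had 812, 822, 579, 780 and 589 TPM. Ccl8, encoded close by on chromosome 11, had 970, 902, 468, 129 and 213 TPM, the widest range of the monocyte attractants. Ccl7 and Ccl12 of the same gene group had narrower ranges, at 224 to 283 TPM and 241 to 367 TPM. The highest Ccl12 value stood apart in mouse 78, with at most 277 TPM in the others. The neutrophil attractant Cxcl2 had 22.3, 6.87, 2.23, 4.22 and 1.30 TPM, and Cxcl3 had 6.76, 1.12, 0.572, 0.713 and 0.830 TPM, both highest in mouse 46 as were S100a8 and S100a9. Ccl3, made by macrophages and activated T cells, had 58.9, 20.5, 21.2, 16.9 and 12.0 TPM. Csf1, the ligand of the macrophage receptor, stayed between 123 and 211 TPM.

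Of the 3 TGF-β ligand genes, Tgfb1 had the highest level. TGF-β is secreted in a latent form that GARP, NRROS or latent TGF-β binding proteins hold, and it is set free largely by the integrins αVβ6 and αVβ8. Tgfb1 had 56.5, 57.6, 62.7, 58.2 and 58.3 TPM. Tgfb3 had 23.5, 28.4, 30.2, 45.3 and 32.5 TPM, and Tgfb2 lay between 0.345 and 0.676 TPM. Tgfb1 exceeded Tgfb3 from 1.29 to 2.41 times and Tgfb2 from 85.2 to 169 times, in 5 of 5 mice each. Nrros, the latent TGF-β anchor of macrophages, had 41.4 to 52.5 TPM, which is 12.7 to 45.9 times the level of Lrrc32. Among the binding protein genes, Ltbp4 ran from 190 to 217 TPM and Ltbp3 from 71.9 to 83.2 TPM. Itgav lay between 23.2 TPM in mouse 63 and 40.7 TPM, with 37.8 TPM as the lowest of the other mice, but its partners Itgb6 (at most 0.0702 TPM) and Itgb8 (0.199 to 0.505 TPM) were barely detected.

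Receptors and transducers of TGF-β were all expressed, with 12 of 12 genes above 1 TPM in every tumor. The receptor genes Tgfbr1 and Tgfbr2 ran from 20.5 to 39.1 TPM and from 38.9 to 53.8 TPM. Smad4, the shared transducer, had 83.4, 84.9, 65.4, 85.0 and 86.7 TPM, and the inhibitor gene Smad7 ran from 17.3 to 25.6 TPM. The low values of mouse 63 gave much of the spread of the receptor list (CV of the sum 9.97%, and 2.76% without mouse 63).

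Adipocyte genes had the widest range between mice of the marker lists. They summed to 239, 140, 62.1, 32.0 and 35.9 TPM (CV 86.5%), a range of 7.45-fold. Adipoq, the fat cell hormone adiponectin, had 22.0, 10.8, 2.46, 0.181 and 0.809 TPM. Cfd, the complement factor that fat cells secrete as adipsin, had 128, 70.4, 21.3, 11.4 and 10.4 TPM, and Cidec, a protein of lipid droplets, had 14.5, 6.46, 1.29, 0.941 and 0.481 TPM. For Adipoq, Cfd and Cidec, mice 46 and 51 lay above mice 63, 74 and 78, as in 16.8% of all genes. Adipoq and Cidec do not reach the filter's minimum in all 5 mice and so had to differ between mice. Muscle, skin and nerve left few reads: the muscle myosin genes Myh1 and Myh2 had 0 counts in all mice, Krt14 and Krt5 of the epidermis stayed under 1 TPM, and the Schwann cell and nerve list summed to at most 4.08 TPM. Red cell transcripts summed to 123, 223, 343, 122 and 301 TPM and did not follow the adipocyte order. The hemoglobin genes are near-identical pairs, so their single levels are uncertain.

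The 20 genes with the largest biological CV were taken among genes with a mean of at least 10 CPM. Car3 was first, an abundant carbonic anhydrase of fat and muscle (48.0, 27.7, 3.91, 1.13 and 2.73 TPM, biological CV 1.23), and Cfd was among them with the lipase gene Lpl (14.3, 8.86, 3.34, 2.38 and 2.47 TPM). Hp, the hemoglobin-binding haptoglobin of liver and fat, had 121, 91.5, 14.7, 5.59 and 7.51 TPM. Lcn2, an iron-binding protein of neutrophils and inflamed tissue, had 25.7, 28.5, 3.89, 9.80 and 4.34 TPM. Hmox1, which breaks down heme, had 614, 788, 211, 298 and 143 TPM. Granzymes D, E, F and G, Ccl8, Nos2, Postn, Cx3cr1, Hba-a1 and Tpsb2 were also among the 20. Rn7sk, a short nuclear RNA without a poly(A) tail, had 108, 80.6, 77.4, 392 and 965 TPM, against the order of most others. Arhgap28 had 6.67, 5.37, 10.6, 20.5 and 13.7 TPM. Xist and RP24-464B16.1, the latter not matched to a length, complete the set.

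**Figure D5:**
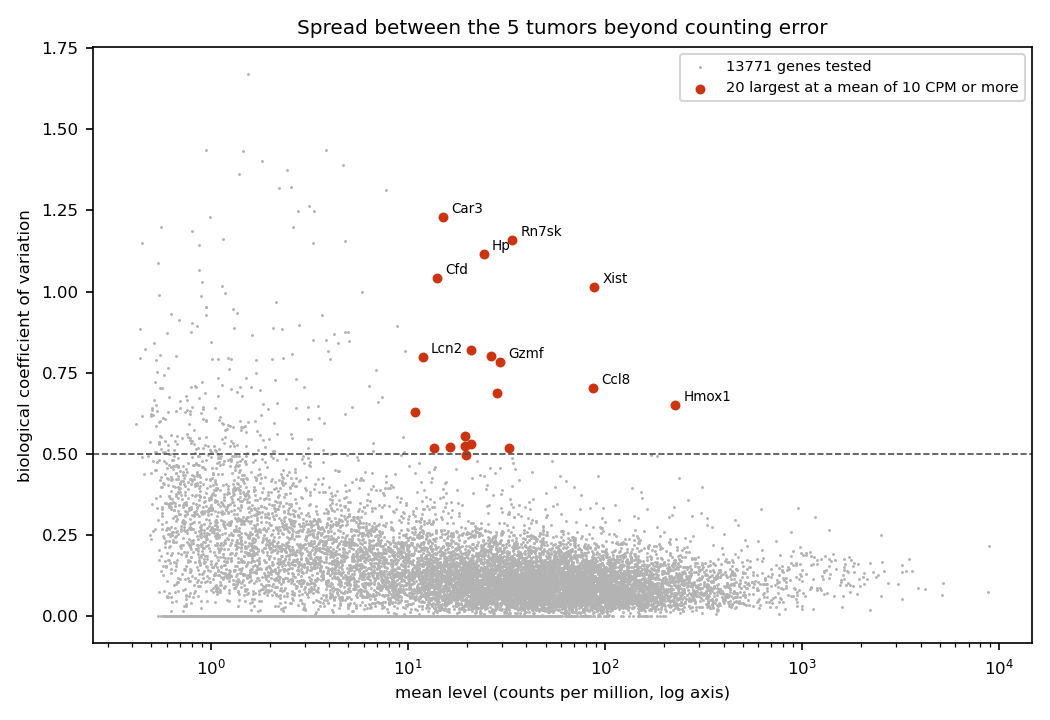
Biological CV between the 5 tumors (vertical axis) against the mean level in CPM (horizontal axis, logarithmic) for 13771 genes, with the 20 largest at a mean of 10 CPM or more in red and the dashed line at 0.5. Most genes lie far below the line, and Car3 (1.23), Rn7sk (1.16), Hp (1.12) and Cfd (1.04) stand highest of the red points.

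The mice also fall into 2 parts of the library numbering, 41 to 60 (mice 46 and 51) and 61 to 80 (mice 63, 74 and 78), which sex chromosome transcripts told apart in an earlier look at these data. Xist, made from the inactive X chromosome, had 1, 1, 1273, 1955 and 2864 counts. The Y-linked genes Ddx3y (160 and 181 counts), Eif2s3y, Uty and Kdm5d were counted in mice 46 and 51 and had 0 counts in mice 63, 74 and 78, which allows up to 0.235 CPM in the shallowest of them. These genes describe the split and do not test it. The labels do not say what the 2 parts are, and host sex cannot be told apart from the numbering. This holds too for the epithelial, macrophage state, checkpoint and adipocyte genes above that set mice 46 and 51 apart.

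Between the parts, 4 genes were higher in libraries 61 to 80 (0.029% of 13771) and 19 were lower (0.138%) at an adjusted p of 0.05 (quasi-likelihood test of edgeR), and 901 genes had an unadjusted p under 0.05. The sex chromosome genes, which told the parts apart, make up 5 of the 23 and are no result of the test. Of the other 18, 7 (Epcam, Ltf, S100a8, Cidec, Retn, Mrap and Gpd1) do not reach the filter's minimum in all 5 mice. Passing it already took a difference between mice, so their calls carry no weight. The remaining 11 genes pass the filter in all 5 mice, 10 of them lower in libraries 61 to 80 and 1 higher. The log2 difference, libraries 61 to 80 minus 41 to 60, was -3.41 for Hp (SE 0.335, adjusted p = 0.00595 in edgeR), -3.77 for Car3 (SE 0.386, adjusted p = 0.00696 in edgeR) and -2.70 for Cfd (SE 0.352, adjusted p = 0.0271 in edgeR). Lpl (adjusted p = 0.0230 in edgeR) and Plin4, which encodes a coat protein of lipid droplets, were lower as well, as was RP24-499A8.3 (adjusted p = 0.0271 for both in edgeR). The calls of Lcn2, Hmox1, the IFNγ-induced Iigp1 (log2 difference -0.80) and Fcrl6, all lower, and of Rerg, a Ras-like growth inhibitor that was higher (34.0, 34.2, 57.5, 54.5 and 62.6 TPM, log2 difference 0.83), were at the threshold (adjusted p = 0.0478 in edgeR). These 5 lost the call with DESeq2's size factors (adjusted p from 0.0528 to 0.0537 in edgeR) and without either mouse 46 or mouse 51. Hmox1 also lost it without mouse 63, Iigp1, Fcrl6 and Rerg without mouse 74, and Lcn2, Iigp1, Fcrl6 and Rerg without mouse 78, where Plin4 and RP24-499A8.3 did too. Cfd lost it without mouse 74 (adjusted p = 0.0984 in edgeR). With 2 mice against 3, the count depends on single mice: 4 genes were called without mouse 46, 27 without mouse 51, 137 without mouse 63, 19 without mouse 74 and 13 without mouse 78. Without mouse 46 or 51 an arm holds 1 mouse, which is then assumed to vary like the others. Without mouse 46, the 3 of the 23 still called were the sex chromosome genes Xist, Ddx3y and Eif2s3y, and none of the 11 genes kept its call. The log2 difference of Hp was then -3.18 (adjusted p = 0.0765 in edgeR) and that of Car3 -3.29 (adjusted p = 0.0911 in edgeR).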

How the data were processed

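Tumor RNA of 5 isotype control mice was analysed. The authors made stranded mRNA libraries, sequenced paired reads of 100 bases, aligned them to GRCm38 with STAR 2.5.3a and counted reads per gene with HTSeq 0.9.1 (SAMtools 1.6, per the labels). The deposited values are raw counts of 54087 genes, not normalized. The annotation release and the strand setting are not given in the sources used here. All 40 columns map to samples, and 0 were left out as unmapped.

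TPM were computed from the counts and the GENCODE exon lengths of GRCm38. Names were matched by symbol (28473) or older symbol (245), and matched genes held 97.4% to 97.6% of counts. The filter was filterByExpr of edgeR 4.0.16 with the 2 library parts as groups. Spread used TMM-normalized counts: the biological CV (called at 0.5) and a chi-square test with 4 degrees of freedom and Benjamini-Hochberg adjustment. The part test was edgeR's robust quasi-likelihood test (R 4.3.3, limma 3.58.1, 2-sided), with DESeq2 1.42.0 as an alternative. Figures and tables used Python 3.11.15. Nothing says whether replicates share a cage or litter, so p-values of the part test measure the spread between these mice. Those of the chi-square test are set against counting error only.

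Counts were simulated with a biological CV of 0.8 in 200 genes and 0.2 in the rest, and 13582 genes passed the filter. Of the changed genes among these, 85.3% were recovered, with 31 false calls. The part test was simulated with a biological CV of 0.2 in every gene. There, 46% of genes changed by a log2 of 1 and 99.5% of those changed by a log2 of 2 were recovered. False calls were 4 and 7 (13595 and 13570 genes run), and 0 calls were made where no gene was changed. The simulation holds no outlying library such as that of mouse 63, and genes called in the data, such as Car3 and Hp, spread far more.

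Genes named were members of the marker lists, the 30 highest by TPM, the 20 largest by biological CV at a mean of 10 CPM or more, and the 10 with the smallest p in each direction of the part test. The further genes of the part test and H2-Ea-ps were named after their values were seen. The mice and lists were chosen with earlier results of these data known. Intervals for 0 counts use 3 counts and cover counting error only. Some items are not reported here.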

Additional observations from a re-analysis of the deposited data

Results flagged for a closer look

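A total of 238 values (summed lists, shares of counts, genes named above, total counts) were tested for a single mouse far from the other 4, with Dixon's ratio for 5 samples (0.71). Of these, 31 (13.0%) were past it. Chance gives about 1 in 20 for values that are independent and not chosen by their spread, which these are not, since many genes were named for their spread and sums were tested beside their members. Ly6g and Klra8 had counts in 1 mouse alone, which fixes their ratio. No explanation was tested for any of them.

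Mouse 63 was the mouse set apart in 13 of them, which accompanies the difference by gene length of its library. It was the lowest in the colon carcinoma list (summed TPM of 1065, others from 1285 to 1345), in the TGF-β receptor and Smad list (372 TPM, others from 453 to 484), and in the genes Zeb1 (9.11 TPM), Trp53 (139 TPM), Ccnd1 (399 TPM), Smad4 (65.4 TPM) and Itgav (23.2 TPM). It was the highest in the myofibroblast and smooth muscle list (83.0 TPM, others from 60.2 to 66.5), in the share of ribosomal protein genes (10.8% of counts) and of the 100 genes with the most counts (21.1%, others from 18.4% to 19.2%), and in Cldn5 (15.7 TPM), Egfl7 (13.5 TPM) and Irf7 (213 TPM).

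Mouse 46 was the highest in the neutrophil genes S100a9 (155 TPM, others up to 46.9), Cxcr2 (2.71 TPM) and Ly6g (0.836 TPM, others listed at 0), in the chemokine genes Ccl3 (58.9 TPM), Cxcl2 (22.3 TPM) and Cxcl3 (6.76 TPM), and in Gpd1 (8.85 TPM), Foxp3 (0.818 TPM, from 19 counts) and Ltbp3 (83.2 TPM).

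Mouse 51 was the highest in the plasma cell and immunoglobulin list (227 TPM, others from 157 to 175), in the share of immunoglobulin genes (0.00761% of counts), in Ighg1 (8.97 TPM), Jchain (3.31 TPM) and Klra8 (0.416 TPM), and in the Schwann cell and nerve list (4.08 TPM, others up to 2.99).

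Mouse 74 was the lowest in the macrophage state list (3762 TPM, others from 4584 to 4800), in which Spp1 is the largest member, and in Spp1 itself (3436 TPM, others from 4076 to 4295). Mouse 78 was the highest in Ccl12 (367 TPM, others from 241 to 277).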

How the results depend on the processing

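The number of genes detected stayed within 1.5 times under every alternative run (11412 to 11464 without 1 mouse). The count of genes with a biological CV of at least 0.5 (268) depended on the filter and the measure: 4240 with no filter, 70 where the filter asks for its minimum in all 5 mice (chosen after seeing the data), 19 at a mean of 10 CPM or more, 1080 at a threshold of 0.3 and 121 with edgeR's tagwise dispersion. Without 1 mouse it ran from 257 to 567, the median biological CV from 0.0657 (without mouse 63) to 0.112, and the genes with spread beyond counting error from 6369 to 9279. The part test called 89 genes with DESeq2's Wald test, 12 with DESeq2's size factors and 247 with no filter, against 23, and 4 to 137 without 1 mouse (without mouse 46 or 51, an arm of 1 mouse is assumed to vary like the others). Of the 23, DESeq2's test and the test with no filter called all, and DESeq2's size factors 12. Without mouse 46, those still called were Xist, Ddx3y and Eif2s3y. No gene called there changed direction in any alternative. Lengths of the longest transcript moved the mean sums of several lists by more than their SD. Among them were the fibroblast list (1109 to 1337 TPM) and the pan-leukocyte list (898 to 993 TPM). Others were the glycolysis and hypoxia list (9231 to 12441 TPM) and the macrophage list (8256 to 6786 TPM). Without 1 mouse, the fibroblast and pan-leukocyte sums ran from 1078 to 1137 and from 868 to 912 TPM. Of the 38 lists, the highest mouse was the same in 37 with these lengths, 36 with TMM-scaled TPM and 35 with TPM over protein-coding genes (chosen after seeing the data). The latter leaves out members with another annotation, such as T cell receptor and immunoglobulin constant genes, and took the T cell list from 169 to 86.9 TPM and the plasma cell list from 177 to 83.1 TPM. At this depth, genes under about 1 TPM rest on few counts. No paired analysis was possible because the replicate numbers of the single group pair no samples.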

Other observations

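Immediate early genes, which respond within minutes to stress or growth signals and can rise while tissue is handled, were expressed in every tumor. The 8 genes summed to 834, 705, 726, 749 and 656 TPM in mice 46, 51, 63, 74 and 78. Egr1 had 223, 157, 152, 212 and 138 TPM, Fos had 21.4 to 33.4 TPM and Junb 176 to 208 TPM. None reached a biological CV of 0.5, which 1.95% of all genes do.

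Platelet genes were low. Itga2b, the platelet integrin, had 2.70 to 3.01 TPM in the 5 mice, and Ppbp, a platelet chemokine, had 6.00, 2.49, 0.554, 1.38 and 1.24 TPM. Tubb1, the tubulin of platelets, was counted in mouse 78 alone, at 0.159 TPM.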
